A study of Mus musculus with 29 samples.

Results

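The 6 genes described here encode the mouse receptors that bind the Fc part of IgG, with the chain that carries their signal and the receptor that salvages IgG inside the cell. They are the activating receptors Fcgr1, Fcgr3 and Fcgr4, the signalling chain Fcer1g, the inhibitory receptor Fcgr2b and the neonatal receptor Fcgrt. Their rows were taken by gene symbol, and all 6 were found among the 23930 genes of the expression table. The study sorted macrophages from spleen and liver of wild-type mice and of mice lacking RNase T2, an endosomal enzyme that degrades RNA, and asked what marks the macrophages that accumulate without it. The deficient mice carry deletions of both Rnaset2a and Rnaset2b on the C57BL/6 background and are called Rnaset2-/- below, and no group received a treatment. Spleen gave Ly6C-high wild-type (n = 3), Ly6C-high Rnaset2-/- (n = 3), Ly6C-low wild-type (n = 3) and Ly6C-low Rnaset2-/- (n = 4) libraries. Liver gave Ly6C-high wild-type (n = 3), Ly6C-high Rnaset2-/- (n = 3), Ly6C-low wild-type (n = 3), Ly6C-low Rnaset2-/- (n = 3) and wild-type Kupffer cell (n = 4) libraries.

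IgG bound to a target engages receptors of opposite sign on the same macrophage. Fcgr1, Fcgr3 and Fcgr4 pair with the gamma chain encoded by Fcer1g, whose phosphorylated tyrosine motif recruits the kinase Syk and drives phagocytosis and cytokine release, whereas Fcgr2b carries an inhibitory motif that recruits the phosphatase encoded by Inpp5d. Fcgrt works with beta-2 microglobulin in acidic endosomes, where it binds IgG and returns it to the cell surface, and macrophages are a main site of that salvage.

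The product of Fcgr4, CD16.2, was itself a sorting marker. The labels give Ly6C-low cells as CD11b+ Fcgr4+ Ly6G- SiglecF- NK1.1-, and Ly6C-high cells as CD11b+ Ly6G- SiglecF- NK1.1-, while Kupffer cells were taken as Tim4+ and F4/80+ cells with intermediate CD11b and low PDCA-1. Fcgr4 levels between Ly6C-low and Ly6C-high cells therefore describe the gate and were not read as a result. The methods of the study add that spleen Ly6C-high cells were taken as low for CD16.2. For liver the sources differ, because the methods gate Rnaset2-/- macrophages on CD16.2 but describe wild-type ones by F4/80 and CD11b without it, whereas the labels give Fcgr4+ for the Ly6C-low cells of both genotypes. The methods also print the same gate, low for Ly6C and high for CD16.2, for both Rnaset2-/- liver subsets. The CD16.2 gate of the Rnaset2-/- liver Ly6C-high cells is therefore unclear. A genotype difference in Fcgr4 is therefore one among cells chosen on that protein in spleen, and in liver a different gate in the 2 genotypes cannot be told apart from genotype.

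In the GRCm38 annotation, 4 of the 6 genes lie on chromosome 1 within 275749 bases. These are Fcgr2b at chr1:170958617-170976547 on the minus strand, Fcgr4 at chr1:171018920-171029761 on the plus strand, Fcgr3 at chr1:171051174-171064935 on the minus strand and Fcer1g at chr1:171229572-171234365 on the minus strand. Fcgr1 lies at chr3:96282909-96293969 and Fcgrt at chr7:45092990-45103851, both on the minus strand. All 6 are protein-coding genes. The 120 bases before the RefSeq start are shown for 3 of them because, in liver Ly6C-low macrophages, Fcgr1 and Fcgr4 were higher and Fcgr2b was lower in Rnaset2-/- libraries. The sequences are from RefSeq on GRCm38.p6, written 5′ to 3′ on the strand of the gene, at chr3:96293970-96294089 for Fcgr1, chr1:171018806-171018925 for Fcgr4 and chr1:170976072-170976191 for Fcgr2b. The RefSeq starts are not those of the positions above for Fcgr2b, whose stretch lies inside the gene as given there, and for Fcgr4, whose stretch runs slightly past the given start. Capitals mark matches to the following motifs. GAGGAA is an extended form of the ETS family core, such as that of PU.1, here on the opposite strand and so read as its complement. TTCNNNGAA is the STAT-binding GAS element. The last is an interferon-response-like element of 2 GAAA half-sites with any 2 bases between them.
Fcgr1: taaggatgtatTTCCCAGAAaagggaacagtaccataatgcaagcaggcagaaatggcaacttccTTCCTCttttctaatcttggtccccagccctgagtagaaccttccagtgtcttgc
Fcgr4: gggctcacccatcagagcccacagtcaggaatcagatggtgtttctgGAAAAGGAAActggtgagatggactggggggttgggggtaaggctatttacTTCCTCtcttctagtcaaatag
Fcgr2b: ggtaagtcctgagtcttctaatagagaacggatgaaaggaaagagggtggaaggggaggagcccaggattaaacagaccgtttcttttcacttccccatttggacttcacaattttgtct
Over 250 bases upstream and both strands, the Fcgr1 promoter held 1 GAS match, 109 to 101 bases before the start, and 1 GAGGAA match, 55 to 50 bases before it. The Fcgr4 promoter held 1 interferon-response-like match, 73 to 64 bases before the start, and 1 GAGGAA match, 22 to 17 bases before it. The Fcgr2b promoter held none of the motifs in these exact forms, and shorter ETS cores were not counted. Of the members not shown, Fcgr3 also held GAGGAA, 6 to 1 or 15 to 10 bases before its RefSeq start, and was not called in liver Ly6C-low cells. No match was found for Fcer1g and Fcgrt. A link between motifs and expression was not tested. Among 32851 mouse promoters of that length, 23.3% held GAGGAA, 7.02% held TTCNNNGAA and 2.98% held the interferon-response-like element.

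Expression was given in RPM, the reads of a gene scaled to a common library total, from a targeted amplicon panel, and each library held between 11175843 and 21167602 reads. Values of different genes are not comparable on this scale, because amplicons differ in efficiency, so each gene was compared with itself across groups. Every member was read in all 29 libraries, from 43 reads for Fcgr2b in one liver Ly6C-low Rnaset2-/- library to 103300 reads for Fcer1g. The spleen Ly6C-high Rnaset2-/- libraries held 20404155 to 21167602 reads and the wild-type ones 14280906 to 14415756 reads. Depth therefore went with genotype in that comparison. Outside that Rnaset2-/- group no library held more than 14572065 reads. The labels do not say whether replicates were separate mice, so p-values measure the spread between these libraries. The macrophage gene Csf1r had group means between 779 and 1761 RPM, and Cd68 between 691 and 1638 RPM. The 6 liver Rnaset2-/- libraries had Xist at or below 0.154 RPM and summed Y-linked reads of 150.2 to 291 RPM, whereas the 6 wild-type liver Ly6C libraries had Xist at 321.5 RPM or above, so sex and genotype cannot be told apart in liver. In 4 of those 6 wild-type libraries (replicates 2 and 3 of both subsets) Y-linked reads of 28.95 to 52.0 RPM were present beside Xist. In spleen, Ly6C-low Rnaset2-/- replicate 2 stood apart with Xist at 0.781 RPM and Y-linked reads of 301 RPM, while every other spleen library had Xist at 352.5 RPM or above and Y-linked reads of at most 0.14 RPM. Without that library Fcgr4, Fcgr2b and Fcgr1 were still called between genotypes (log2 fold change 2.38, 1.68 and 0.78, adjusted p = 0.00124, 0.0294 and 0.0326). A panel of 13 immediate early genes, which respond to tissue handling, summed to 23754 to 33981 RPM in the wild-type liver Ly6C libraries and to 1279 to 6859 RPM in the Rnaset2-/- ones. In spleen Ly6C-high cells 8 of the 13 were called lower in Rnaset2-/- libraries, against 12.5% of all tested genes. In spleen Ly6C-low cells 0 were called. In bulk libraries fewer cells expressing a gene and less RNA per cell cannot be told apart.

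To ask which Fc receptor genes changed in macrophages that lack RNase T2, each Rnaset2-/- group was compared with the wild-type group of the same organ and subset. A gene was called when its scaled values differed by over 1.5-fold with an adjusted p under 0.05 across all tested genes. Log2 fold changes are of these scaled values. Folds other than the 1.5-fold limit are ratios of mean RPM as deposited, so they need not match the log2 fold changes beside them. Fcgr4 was called higher in all 4 comparisons. Fcgr1 was called higher in the Ly6C-low cells of both organs. Fcgr2b was called in those same cells but in opposite directions, higher in spleen and lower in liver, and Fcgrt was called lower in spleen Ly6C-high cells. In spleen Ly6C-high cells 2 of 6 members were called, against 22.2% of all tested genes. Those called in spleen Ly6C-low cells were 3 of 6, against 8.35% of all tested genes. In liver 1 of 6 was called in Ly6C-high cells, against 30.6%, and 3 of 6 in Ly6C-low cells, against 42.7%.

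**Figure D1:**
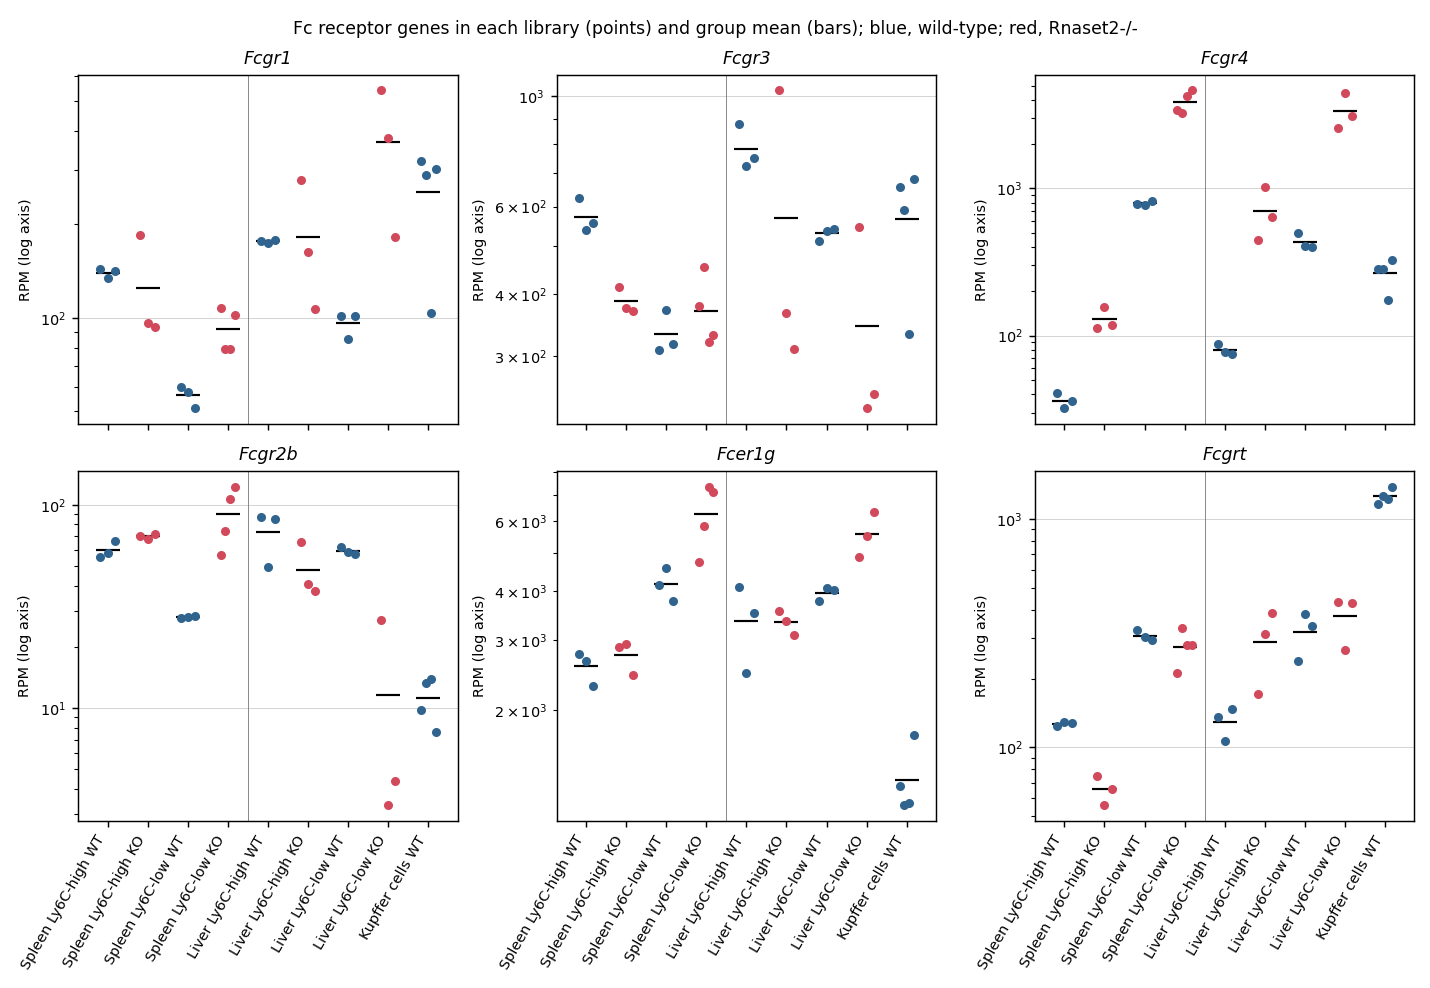
Expression of the 6 genes in RPM on a log axis, 1 panel per gene, with 1 point per library, bars at group means, wild-type libraries in blue and Rnaset2-/- libraries in red. Fcgr4 libraries of the 2 genotypes do not overlap in any subset, and Fcgr2b falls to 3.35 RPM in a liver Ly6C-low Rnaset2-/- library.

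**Figure D2:**
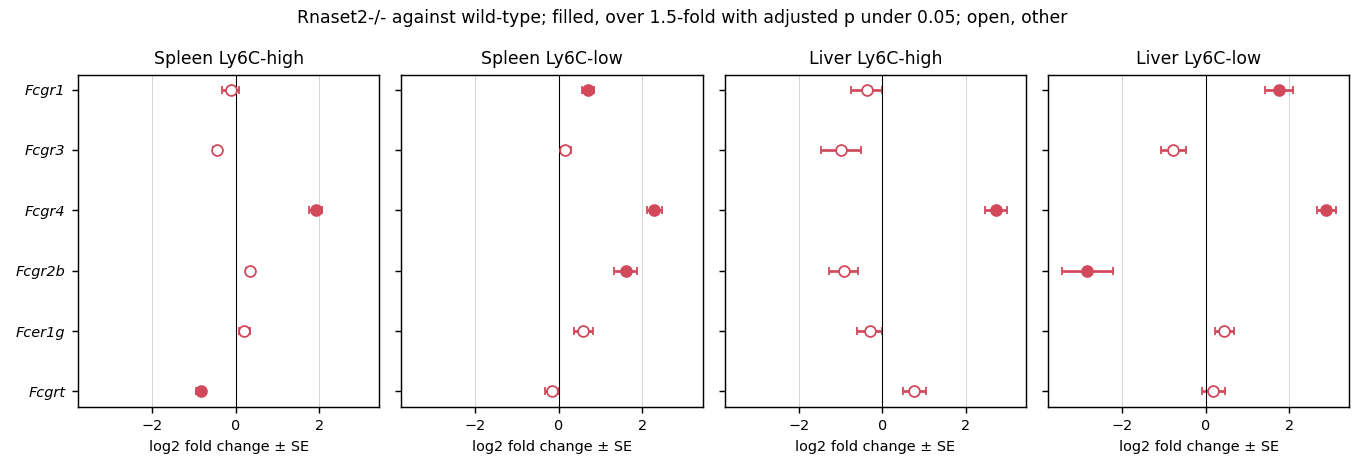
Log2 fold change of each gene in Rnaset2-/- against wild-type libraries (points) with its standard error (bars), 1 panel per organ and subset on 1 shared axis. Filled points passed the call and open points did not, and Fcgr4 lies between 1.92 and 2.89 in all 4 panels.

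Fcgr4 encodes the activating receptor of intermediate affinity that binds IgG2a and IgG2b. In spleen Ly6C-high cells it was read at 40.6, 32.1 and 35.6 RPM in wild-type and at 112.3, 156.6 and 118.6 RPM in Rnaset2-/- libraries. In spleen Ly6C-low cells the wild-type libraries gave 781, 769 and 821 RPM and the Rnaset2-/- libraries 3394, 3231, 4238 and 4635 RPM. In both subsets the lowest Rnaset2-/- library stood above the highest wild-type library. The mean rose 3.58-fold in Ly6C-high cells (log2 fold change 1.92, SE 0.150, adjusted p = 1.1e-05) and 4.90-fold in Ly6C-low cells (2.28, SE 0.187, adjusted p = 0.000437).

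In liver Ly6C-high cells Fcgr4 was read at 88.3, 77.2 and 74.6 RPM in wild-type and at 445, 1021 and 639.8 RPM in Rnaset2-/- libraries. In liver Ly6C-low cells the values were 501, 405 and 398 RPM in wild-type and 2577, 4451 and 3118 RPM in Rnaset2-/- libraries. The groups again did not overlap, and the Rnaset2-/- Ly6C-high libraries reached the level of wild-type Ly6C-low ones. The mean rose 8.77-fold in Ly6C-high cells (log2 fold change 2.72, SE 0.266, adjusted p = 0.000634) and 7.78-fold in Ly6C-low cells (2.89, SE 0.228, adjusted p = 6.02e-05). When the wild-type libraries holding both Xist and Y-linked reads were left out, which leaves 1 wild-type library and takes the spread from the Rnaset2-/- group alone, the log2 fold change of Fcgr4 was 2.54 in Ly6C-high cells (adjusted p = 0.0738, no longer called) and 2.71 in Ly6C-low cells (adjusted p = 0.0204).

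Neutrophils also carry Fcgr4, and a list of 12 neutrophil granule and receptor genes summed to 28315, 15564, 2859 and 2102 RPM in the 4 spleen Ly6C-low Rnaset2-/- libraries, against 608 to 1380 RPM in wild-type. The libraries lowest for that list were the highest for Fcgr4. Without the first pair of these libraries, a choice made after seeing the data, the log2 fold change of Fcgr4 was 2.55 (SE 0.110, adjusted p = 2.23e-06). That pair held the lowest Fcgr4 values of the Rnaset2-/- group, so a larger value was fixed by the choice. It also included the library that stood apart for Xist. The part of neutrophils in the spleen Ly6C-low value was not tested. In liver Ly6C-low cells the list summed to 7.43 to 20.7 RPM in Rnaset2-/- and 17.1 to 21.9 RPM in wild-type libraries. In spleen Ly6C-high cells it summed to 21132, 39103 and 35893 RPM in Rnaset2-/- and 19066 to 21743 RPM in wild-type libraries, 7 of its 12 genes were called higher, and replicate 2 was the highest both for the list and for Fcgr4. In liver Ly6C-high cells the sums were 179 to 1087 RPM and 262 to 1552 RPM. The part of neutrophils in the spleen Ly6C-high value was not tested.

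Across all 9 groups the Fcgr4 mean ran from 36.1 ± 4.25 RPM (SD, n = 3) in wild-type spleen Ly6C-high cells to 3875 ± 672 RPM (SD, n = 4) in Rnaset2-/- spleen Ly6C-low cells, a 107.3-fold range that the gate helps to set. Neighbours in this order whose libraries overlapped were the Rnaset2-/- Ly6C-low cells of spleen and liver, wild-type spleen Ly6C-low and Rnaset2-/- liver Ly6C-high cells, and the latter with wild-type liver Ly6C-low cells. Kupffer cells were read at 282, 284.7, 173 and 329 RPM, below every wild-type liver Ly6C-low library.

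Fcgr1 encodes the high-affinity receptor that binds monomeric IgG2a. Wild-type spleen libraries gave 143.8, 134.4 and 141.1 RPM in Ly6C-high and 59.97, 57.8 and 51.2 RPM in Ly6C-low cells. Rnaset2-/- spleen libraries gave 184.2, 96.5 and 93.2 RPM in Ly6C-high and 107.8, 79.5, 79.2 and 102.2 RPM in Ly6C-low cells. The wild-type values were tight and separate, whereas the Rnaset2-/- values of the 2 subsets overlapped. Fcgr1 rose 1.64-fold in Rnaset2-/- spleen Ly6C-low cells (log2 fold change 0.70, SE 0.145, adjusted p = 0.0238), and leaving out any 1 of the 3 wild-type libraries ended that call (log2 fold change 0.64 to 0.73, adjusted p 0.0629 to 0.115). In spleen Ly6C-high cells its log2 fold change was -0.12 (adjusted p = 0.679).

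In wild-type liver, Fcgr1 was read at 176.2, 174.6 and 178.5 RPM in Ly6C-high and at 101.3, 85.2 and 101.3 RPM in Ly6C-low cells. In Rnaset2-/- liver it was read at 278, 163 and 106.5 RPM in Ly6C-high and at 539.8, 379.6 and 182 RPM in Ly6C-low cells. The lowest Rnaset2-/- Ly6C-low library was above the highest wild-type one. The mean rose 3.83-fold in liver Ly6C-low cells (log2 fold change 1.76, SE 0.339, adjusted p = 0.00406), and with the single wild-type library free of Y-linked reads, which leaves the spread to the Rnaset2-/- group alone, the log2 fold change was 1.71 (adjusted p = 0.112, not called). In liver Ly6C-high cells the fitted log2 value for Fcgr1 was -0.38 (adjusted p = 0.466) after scaling, although the RPM means were 183 in Rnaset2-/- and 176 in wild-type libraries. On the values as deposited, where the median of all genes was higher by 0.29, it was -0.06.

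Kupffer cell markers were also read in these cells, where Fcgr1 had its highest mean. A list of 9 such genes summed to 6987 to 11626 RPM in liver Ly6C-low Rnaset2-/- libraries and 486 to 792 RPM in wild-type ones, and most of that was Cd5l, with a mean of 7290 RPM. The Kupffer-defining lectin Clec4f averaged 44.7 RPM there, against 8.09 RPM in wild-type Ly6C-low cells and 4197 RPM in Kupffer cells. The part of these cells in the Fcgr1 value was not tested. Kupffer cells themselves gave Fcgr1 values of 319, 289, 103 and 302 RPM.

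Fcgr3 encodes the low-affinity activating receptor CD16, the member with the narrowest range, 2.36-fold between its highest and lowest group means. Wild-type spleen libraries gave 624, 538 and 555 RPM in Ly6C-high and 308, 372 and 318 RPM in Ly6C-low cells, and Rnaset2-/- spleen libraries gave 414, 376 and 371 RPM in Ly6C-high and 379, 453, 320.2 and 331 RPM in Ly6C-low cells. In Ly6C-high cells every Rnaset2-/- library lay below every wild-type one, at -0.45 on the log2 scale (SE 0.0964, adjusted p = 0.00495), which is under 1.5-fold and so not called. In Ly6C-low cells the groups overlapped (0.16, adjusted p = 0.482).

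In liver, 1 Rnaset2-/- library of each subset stood apart for Fcgr3. Ly6C-high cells gave 879, 724 and 752 RPM in wild-type and 1028, 367 and 310.1 RPM in Rnaset2-/- libraries, and Ly6C-low cells gave 513, 536 and 541 RPM in wild-type and 547, 236 and 252 RPM in Rnaset2-/- libraries. Replicate 1 of both Rnaset2-/- subsets was the highest library and the others lay below all wild-type libraries. With all libraries neither subset was called (log2 fold change -0.99, adjusted p = 0.147 in Ly6C-high cells, and -0.77, adjusted p = 0.0749 in Ly6C-low cells). Without replicate 1, the Fcgr3 difference was -1.59 (log2) in Ly6C-high cells (adjusted p = 8.08e-05) and -1.14 in Ly6C-low cells (adjusted p = 0.000884). Both passed the call, but replicate 1 held the highest Fcgr3 value of each group, so a larger drop was fixed by the choice. Replicate 1 of the Ly6C-high Rnaset2-/- group also had the lowest sum of Ly6C-low monocyte markers, 1646 RPM against 6956 and 7060 RPM in the other libraries.

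Fcer1g encodes the common gamma chain, without which Fcgr1, Fcgr3 and Fcgr4 are poorly held at the surface. Spleen Ly6C-low libraries gave 4127, 4557 and 3778 RPM in wild-type and 4731, 5820, 7327 and 7102 RPM in Rnaset2-/- mice, and liver Ly6C-low libraries gave 3766, 4068 and 4019 RPM in wild-type and 4878, 5516 and 6326 RPM in Rnaset2-/- mice. In both organs each Rnaset2-/- library exceeded each wild-type one, yet neither difference was called (log2 fold change 0.58, SE 0.226, adjusted p = 0.128 in spleen, and 0.45, SE 0.229, adjusted p = 0.147 in liver). Without the pair of spleen libraries richest in neutrophil reads, Fcer1g passed the call at 0.86 on the log2 scale (adjusted p = 0.00196). That pair also held the lowest Fcer1g values of the Rnaset2-/- group, so a larger value was fixed by the choice. Ly6C-high libraries overlapped between genotypes, at 2769, 2657 and 2300 RPM against 2879, 2927 and 2444 RPM in spleen and at 4084, 2475 and 3519 RPM against 3549.6, 3362 and 3086 RPM in liver.

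Fcgr2b encodes the only inhibitory receptor of the group and moved in opposite directions in the Ly6C-low cells of the 2 organs. Spleen Ly6C-low cells held it at 27.7, 27.9 and 28.3 RPM in wild-type and at 56.6, 73.9, 106.8 and 122.3 RPM in Rnaset2-/- libraries. In liver Ly6C-low cells it was read at 61.7, 58.5 and 57.4 RPM in wild-type and at 27.0, 3.35 and 4.36 RPM in Rnaset2-/- libraries. The wild-type libraries varied little and neither pair of groups overlapped, while the Rnaset2-/- libraries spread over a wide range. Fcgr2b rose 3.21-fold in spleen (log2 fold change 1.59, SE 0.273, adjusted p = 0.0132) and was 5.11-fold lower in liver (log2 fold change -2.83, SE 0.616, adjusted p = 0.0068).

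The size of both differences varied little with the wild-type libraries included. In spleen, leaving out any 1 of the wild-type libraries ended the Fcgr2b call (log2 fold change 1.58 to 1.61, adjusted p 0.0505 to 0.0667). Leaving out the pair of neutrophil-rich Rnaset2-/- libraries gave 2.05 (adjusted p = 2.2e-05). That pair also held the lowest Fcgr2b values of the Rnaset2-/- group, so a larger value was fixed by the choice. In liver, leaving out any 1 of the wild-type libraries kept the call (-2.82 to -2.85, adjusted p 0.0243 to 0.0304). There the single wild-type library free of Y-linked reads gave -2.85 on the log2 scale (adjusted p = 0.135, with the spread from the Rnaset2-/- group alone), and leaving out Rnaset2-/- replicate 1, the library at 27.0 RPM, gave -3.66 (adjusted p = 5.25e-06). That library held the highest Fcgr2b value of its group, so a larger difference was fixed by the choice. It also had the highest sum of Ly6C-high monocyte markers in its group, 363.6 RPM against 37.5 and 109.9 RPM.

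Fcgr2b is also carried by B cells and by liver sinusoidal endothelium, so the markers of both were read beside it. In spleen Ly6C-low cells 8 B cell genes summed to 133 to 154 RPM in wild-type and 46.2 to 111.8 RPM in Rnaset2-/- libraries. There the list of 10 endothelial genes summed to 272 to 327 RPM in wild-type and 1463 to 2206 RPM in Rnaset2-/- libraries, most of it Pecam1, which monocytes also carry, at a mean of 1883 RPM, and 1 of the 4 genes tested was called. In liver Ly6C-low cells the endothelial genes summed to 293 to 543 RPM in wild-type and 1415 to 4589 RPM in Rnaset2-/- libraries. The B cell genes summed to 72.5 to 100.4 RPM and 168 to 402 RPM. Most of both Rnaset2-/- sums was 1 gene, Pecam1 at a mean of 1950 RPM and Cd79b at a mean of 199 RPM. Called higher were 3 of the 10 endothelial and 5 of the 6 tested B cell genes, against 20.2% of all tested genes. The part of either cell type in the Fcgr2b values was not tested.

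In Ly6C-high cells Fcgr2b differed less. Spleen libraries gave 55.4, 58.0 and 66.0 RPM in wild-type and 70.5, 68.2 and 72.1 RPM in Rnaset2-/- mice, a difference of 0.35 on the log2 scale (SE 0.0991, adjusted p = 0.019) that is under 1.5-fold. Liver libraries gave 86.9, 49.6 and 84.9 RPM in wild-type and 65.4, 40.8 and 37.7 RPM in Rnaset2-/- mice (-0.92, SE 0.340, adjusted p = 0.0734). Among all 9 groups the lowest Fcgr2b means were 11.2 ± 2.96 RPM (SD, n = 4) in Kupffer cells and 11.6 ± 13.4 RPM (SD, n = 3) in Rnaset2-/- liver Ly6C-low cells, which overlapped.

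Fcgrt encodes the neonatal receptor, which recycles IgG and serum albumin. In spleen Ly6C-high cells it was read at 124.0, 129.4 and 127.6 RPM in wild-type and at 75.1, 56.1 and 65.7 RPM in Rnaset2-/- libraries, with no overlap. The mean was 1.93-fold lower in Rnaset2-/- cells (log2 fold change -0.83, SE 0.107, adjusted p = 0.000244). In the same comparison all 8 natural killer genes and all 6 dendritic cell genes of 2 marker lists were called lower, against 12.5% of all tested genes. Their sums were 440 to 480 RPM and 146 to 160 RPM in wild-type libraries. In Rnaset2-/- libraries the sums were 19.9 to 52.3 RPM and 17.1 to 24.3 RPM. Called lower too were 7 of 7 T cell, 2 of 2 tested B cell and 3 of 3 tested erythroid genes, while 7 of 12 neutrophil genes were higher. Of 4 tested Kupffer cell genes 1 was called higher and 2 lower. The part of these cell types in the Fcgrt value was not tested.

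In the other comparisons Fcgrt was not called. Spleen Ly6C-low libraries gave 325, 304.6 and 294 RPM in wild-type and 212, 331, 281 and 280.5 RPM in Rnaset2-/- mice, and liver Ly6C-low libraries gave 238, 384 and 340.2 RPM in wild-type and 431, 268 and 430.3 RPM in Rnaset2-/- mice. Liver Ly6C-high libraries gave 135.8, 106.7 and 146.7 RPM in wild-type and 171, 312 and 387 RPM in Rnaset2-/- mice. Only the last pair of groups did not overlap, with a 2.23-fold higher mean in Rnaset2-/- cells and a scaled log2 difference of 0.77 (SE 0.270, adjusted p = 0.0627), which passed the call on the RPM values as deposited (1.09, adjusted p = 0.0311). In the same comparison all 10 endothelial genes were called higher, against 15.7% of all tested genes. Their sums were 94.0 to 143 RPM in wild-type and 497, 2568 and 3309 RPM in the Rnaset2-/- libraries, in the order of their Fcgrt values. Called higher too were 8 of 8 B cell, 6 of 7 T cell, 6 of 8 natural killer and 4 of 4 tested erythroid genes. For dendritic cells it was 2 of 6, for hepatocytes 0 of 7 and for neutrophils 0 of 10. Of 8 tested Kupffer cell genes 3 were called higher and 2 lower. The Kupffer list summed to 587 to 831 RPM in wild-type and 435 to 636 RPM in Rnaset2-/- libraries. The part of these cell types in the Fcgrt value was not tested. B2m, the partner chain of Fcgrt, fell in liver Ly6C-low cells from a mean of 9393 to 4426 RPM (log2 fold change -1.13, adjusted p = 0.00598) and was not called elsewhere (log2 fold change 0.15 and -0.16 in spleen Ly6C-high and Ly6C-low cells and -0.73 in liver Ly6C-high cells).

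The balance of activating to inhibitory receptors was followed as the ratio of each activating gene to Fcgr2b within a library. Such a ratio is free of the library scaling, and its absolute size depends on the amplicons, so only its difference between groups was read. Fcgr4 over Fcgr2b was 6.92 to 8.13 in wild-type liver Ly6C-low libraries and 95.4, 1330 and 714.5 in Rnaset2-/- ones. In spleen Ly6C-low cells the same ratio was 27.5 to 28.99 in wild-type and 37.9 to 59.95 in Rnaset2-/- libraries. The genotype groups did not overlap in either organ, and the difference was 5.94 on the log2 scale in liver (two-sided exact permutation p = 0.1, n = 3 against 3) and 0.66 in spleen (exact p = 0.0571, n = 4 against 3), each the smallest p these designs allow.

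For Fcgr3 over Fcgr2b the sign of the genotype difference was opposite in the 2 organs. In spleen Ly6C-low cells it was 11.1 to 13.3 in wild-type and 2.71 to 6.70 in Rnaset2-/- libraries, a difference of -1.47 on the log2 scale (exact permutation p = 0.0571, n = 4 against 3). In liver Ly6C-low cells it was 8.31 to 9.44 in wild-type and 20.3 to 70.5 in Rnaset2-/- libraries, a difference of 2.28 (exact permutation p = 0.1, n = 3 against 3). In the Ly6C-high cells of liver, Fcgr3 over Fcgr2b overlapped between genotypes, with a difference of -0.05 (exact p = 0.9), and in those of spleen it differed by -0.80 (exact p = 0.1). Fcgr4 over Fcgr2b differed by 1.59 in spleen and 3.68 in liver Ly6C-high cells (exact p = 0.1 in both).

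Fcgr1 over Fcgr2b was 1.46 to 1.77 in wild-type and 19.98, 113.4 and 41.8 in Rnaset2-/- liver Ly6C-low libraries, a difference of 4.82 on the log2 scale (exact permutation p = 0.1). In spleen Ly6C-low cells it overlapped between genotypes, at 1.81 to 2.16 in wild-type and 0.742 to 1.90 in Rnaset2-/- libraries (difference -0.92, exact p = 0.114). The Fcgr1 difference was -0.48 in spleen (exact p = 0.4) and 0.56 in liver Ly6C-high cells (exact p = 0.2). With p-values this coarse, none of the 12 ratio differences can fall below 0.05, before or after adjustment for their number.

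**Figure D3:**
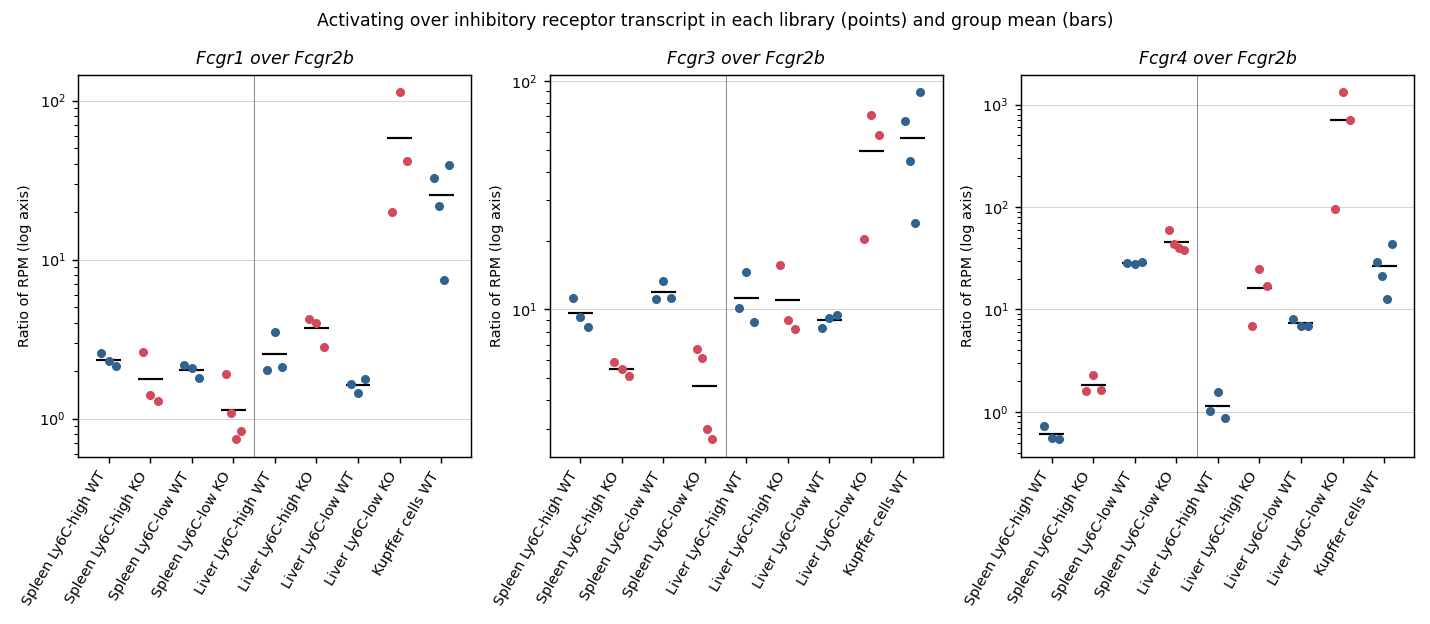
Ratio of the RPM of Fcgr1, Fcgr3 and Fcgr4 to that of Fcgr2b on a log axis, with 1 point per library, bars at group means, wild-type libraries in blue and Rnaset2-/- libraries in red. Liver Ly6C-low Rnaset2-/- libraries have the highest Fcgr4 ratios, from 95.4 to 1330, and spleen Rnaset2-/- libraries have the lowest Fcgr3 ratios, from 2.71.

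Whether the effect of genotype differed between organs or subsets was tested as an interaction, called on adjusted p alone. Between liver and spleen Ly6C-low cells 2 of 6 members differed, against 27.1% of all tested genes. The genotype effect on Fcgr2b was lower in liver than in spleen by 4.42 on the log2 scale (interaction -4.42, SE 0.722, adjusted p = 0.000766), and that on Fcgr1 was higher in liver by 1.07 (SE 0.374, adjusted p = 0.0496), a call that 15 of 18 alternatives ended. Between liver and spleen Ly6C-high cells 2 of 6 differed, against 34.3% of all tested genes, namely Fcgrt (1.64, SE 0.2997, adjusted p = 0.00144) and Fcgr2b (-1.24, SE 0.373, adjusted p = 0.0226), the latter lost under 7 of 17 alternatives. In that interaction 9 of the 10 endothelial genes were also called higher, against 2042 of 11398 tested genes. So were 8 of 8 B cell, 7 of 7 T cell and 8 of 8 natural killer genes, but 0 of 12 neutrophil and 0 of 7 hepatocyte genes. Of 9 Kupffer cell genes 5 were called higher and 1 lower. Called higher too were 5 of 6 dendritic cell and 5 of 5 tested erythroid genes. The Fcgr4 effect did not differ detectably between organs (0.61, adjusted p = 0.137 in Ly6C-low and 0.84, adjusted p = 0.0602 in Ly6C-high cells).

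Between Ly6C-low and Ly6C-high cells, the genotype effect in spleen differed for 2 of 6 members, against 15.7% of all tested genes. These were Fcgr2b (1.23, SE 0.327, adjusted p = 0.0248) and Fcgr3 (0.58, SE 0.172, adjusted p = 0.0382), lost under 8 and 10 of 18 alternatives. In liver it differed for 1 of 6, against 10.3%, namely Fcgr1 (2.15, SE 0.553, adjusted p = 0.0301), lost under 10 of 17 alternatives. The interaction for Fcgr4 was 0.35 in spleen (adjusted p = 0.362) and 0.18 in liver (adjusted p = 0.834). These interactions reuse the libraries of the genotype comparisons.

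The Ly6C-low and Ly6C-high cells of wild-type spleen differed in all 6 members, against 33.6% of all tested genes, with Fcgr4 set by the gate. Fcgr1, Fcgr3 and Fcgr2b were lower in Ly6C-low cells (log2 fold change -1.15, -0.64 and -0.92, adjusted p = 3.02e-06, 0.000385 and 3.68e-05). Fcer1g and Fcgrt were higher (0.84 and 1.42, adjusted p = 9.23e-05 and 2.49e-07). In Rnaset2-/- spleen 3 of 6 were called, against 28.1% of all tested genes, with Fcer1g (1.18, adjusted p = 0.0064) and Fcgrt (2.06, adjusted p = 0.000235) again higher in Ly6C-low cells beside Fcgr4. Fcgr1, Fcgr3 and Fcgr2b overlapped there between subsets (-0.36, -0.06 and 0.30, adjusted p = 0.28, 0.754 and 0.423).

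In wild-type liver 4 of 6 members were called between subsets, against 10.1% of all tested genes. Beside Fcgr4, Fcgr1 and Fcgr3 were lower in Ly6C-low cells (log2 fold change -0.99 and -0.67, adjusted p = 0.00276 and 0.0241) and Fcgrt was higher (1.17, adjusted p = 0.00906). The Fcgr3 call was lost under 8 of 13 alternatives, among them leaving out any 1 Ly6C-low library. In Rnaset2-/- liver 1 of 6 was called, the gate gene Fcgr4, against 17% of all tested genes. There the log2 fold change was 1.14 for Fcgr1 (adjusted p = 0.159) and -2.30 for Fcgr2b (adjusted p = 0.0637), and all 3 Fcgr2b libraries of the Ly6C-low cells lay below those of the Ly6C-high cells. Same-numbered libraries of these 2 groups deviated together, and with the replicate number as a block 3 of 6 were called, Fcgr1 (1.14, adjusted p = 0.00527) and Fcgr2b (-2.30, adjusted p = 0.00366) beside Fcgr4. As a description of the gate, Fcgr4 was 21.9-fold higher in Ly6C-low than in Ly6C-high cells of wild-type spleen and 29.99-fold higher in Rnaset2-/- spleen, with 5.43-fold and 4.82-fold in liver.

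Kupffer cells, the resident macrophages of the liver, were set against the Ly6C-low cells of wild-type liver, and 4 of 6 members were called, against 50% of all tested genes. By mean RPM Fcgrt was 3.92-fold higher in Kupffer cells, at 1165, 1262, 1224 and 1381 RPM. Its scaled log2 fold change was 1.40 (SE 0.203, adjusted p = 0.000209). Fcer1g was lower at 1284, 1151, 1159 and 1730 RPM (-2.18, adjusted p = 1.37e-05), as were Fcgr2b at 9.83, 13.3, 13.9 and 7.63 RPM (-2.90, adjusted p = 2.91e-06) and Fcgr4 (-1.32, adjusted p = 0.000515). For Fcgrt and Fcer1g no other group overlapped the Kupffer cells, which held the highest Fcgrt and the lowest Fcer1g level of the 9 groups. Scaling moved the median of all genes by 0.53 in this comparison, and the directions of these 4 members were the same on the values as deposited.

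Fcgrt is abundant in hepatocytes and endothelium. In Kupffer cells 7 hepatocyte genes summed to 1249 to 4134 RPM, against at most 141.8 RPM in the other liver groups, and the endothelial list summed to 4035 to 8740 RPM. Kupffer replicate 3 was the highest for both lists, at 4134 and 8740 RPM, and its Fcgrt value was 1224 RPM. The part of hepatocytes and endothelium in the Kupffer Fcgrt level was not tested. The same library was the lowest Kupffer library for Fcgr1, Fcgr3 and Fcgr4 and for the Kupffer marker sum, 6934 RPM against 17721 to 19937 RPM. Without it, Fcgr1 passed the call against wild-type Ly6C-low cells (log2 fold change 1.08, adjusted p = 9.34e-05, from 0.68, adjusted p = 0.116). As it held the lowest Fcgr1 value of the Kupffer group, a larger difference was fixed by the choice.

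Set against Rnaset2-/- liver Ly6C-low cells, Kupffer cells differed in 3 of 6 members, against 45.6% of all tested genes. By mean RPM Fcgr4 was 12.7-fold lower, with a scaled log2 fold change of -4.19 (adjusted p = 1.85e-05). Fcer1g was lower (-2.61, adjusted p = 0.000149) and Fcgrt was higher (1.24, adjusted p = 0.00279). Scaling moved the median of all genes by 0.48 in this comparison. Fcgr2b showed no difference that could be resolved between these groups (-0.01, SE 0.579, adjusted p = 0.985), nor did Fcgr1 (-1.05, adjusted p = 0.0768). Both Kupffer comparisons share the Kupffer libraries, which had Xist and no Y-linked reads, so sex, sort and genotype cannot be told apart in the second.

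Liver and spleen were compared within each subset and genotype. In wild-type Ly6C-low cells 4 of 6 members were called, against 34.1% of all tested genes, with Fcgr1 (log2 fold change 0.80, adjusted p = 0.000878), Fcgr3 (0.72, adjusted p = 0.00115) and Fcgr2b (1.09, adjusted p = 0.000123) higher in liver and Fcgr4 lower (-0.83, adjusted p = 0.000459). In Rnaset2-/- Ly6C-low cells 2 of 6 were called, against 36.1%, with Fcgr1 higher (1.89, adjusted p = 0.00261) and Fcgr2b 7.77-fold lower in liver (-3.30, adjusted p = 0.00435). Fcgr2b was thus higher in liver than in spleen in wild-type Ly6C-low cells and lower in Rnaset2-/- ones. In Rnaset2-/- mice the liver libraries lacked Xist and the spleen libraries held it, with the exception of Ly6C-low replicate 2, so sex and organ cannot be told apart in either Rnaset2-/- comparison.

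In wild-type Ly6C-high cells 4 of 6 members were called between organs, against 37.8% of all tested genes, and all were higher in liver, namely Fcgr4 (log2 fold change 1.40, adjusted p = 3.38e-05), Fcgr3 (0.73, adjusted p = 0.00111), Fcgr1 (0.61, adjusted p = 0.000825) and Fcer1g (0.64, adjusted p = 0.0249). On the values as deposited, which shift the median of all genes by -0.26, only Fcgr4 passed the call (1.13). In Rnaset2-/- Ly6C-high cells 2 of 6 were called, against 28.1%, with Fcgr4 (2.29, adjusted p = 0.00111) and Fcgrt (1.98, adjusted p = 0.00112) higher in liver. The immediate early sum also differed between organs in wild-type cells, at 29920 to 31983 RPM in liver and 16626 to 16718 RPM in spleen Ly6C-high cells and 23754 to 33981 RPM and 14274 to 19928 RPM in Ly6C-low cells. In Rnaset2-/- cells it was lower in liver, at 3622 to 6859 RPM against 8511 to 11629 RPM in Ly6C-high and 1279 to 2148 RPM against 14624 to 20740 RPM in Ly6C-low cells, and its part in these values was not tested.

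Beyond the receptors, 26 genes that act just downstream were followed as a list of kinases, phosphatases, adaptors and effectors. All 26 were tested in each genotype comparison. In spleen Ly6C-high cells 1 was higher and 4 lower, against 9.77% and 12.5% of all tested genes. In spleen Ly6C-low cells 5 were higher and 0 lower, against 4.05% and 4.3%. In liver Ly6C-high cells 3 were higher and 5 lower, against 15.7% and 14.9%, and in liver Ly6C-low cells 8 were higher and 5 lower, against 20.2% and 22.5%. The median log2 fold changes of the list were 0.05, 0.0096, 0.11 and 0.18 in that order, against 0.01 for all tested genes in each comparison.

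Syk, the kinase recruited by the gamma chain, rose in the Ly6C-low cells of both organs, from a mean of 241 to 592 RPM in spleen (log2 fold change 1.30, SE 0.152, adjusted p = 0.00251) and from 149.7 to 749.6 RPM in liver (2.28, SE 0.155, adjusted p = 3.1e-05). In Ly6C-high cells it was not called (-0.06, adjusted p = 0.691 in spleen, and 0.55, adjusted p = 0.037, under 1.5-fold, in liver). Inpp5d, the phosphatase that acts with Fcgr2b, was called only in liver Ly6C-high cells, where it was lower (-0.88, SE 0.203, adjusted p = 0.0154). Its values were -0.05 and -0.27 in spleen Ly6C-high and Ly6C-low cells and -0.21 in liver Ly6C-low cells.

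Among the largest called changes of list genes with at least 10 RPM, Blnk, an adaptor that links Syk to phospholipase C and is known best from B cells, fell in spleen Ly6C-high cells (log2 fold change -1.60, adjusted p = 7.37e-05) and rose in spleen Ly6C-low cells (2.50, adjusted p = 0.0431). Rac2, the GTPase that drives phagocytic cup closure and the oxidase, was called higher in all 4 comparisons, from 215 to 331 RPM and from 143 to 304 RPM in spleen Ly6C-high and Ly6C-low cells and from 63.1 to 288 RPM and from 70.1 to 432 RPM in those of liver. Rac2 was singled out after its values were seen.

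**Figure D4:**
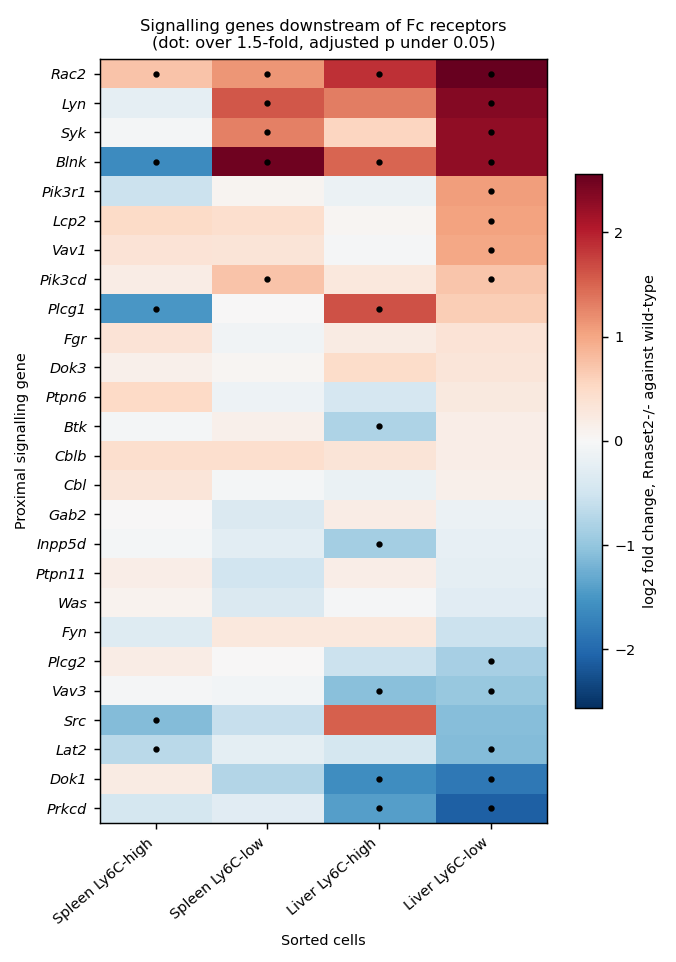
Log2 fold change (colour) of 26 signalling genes downstream of Fc receptors in Rnaset2-/- against wild-type cells, with 1 row per gene ordered by the liver Ly6C-low value and 1 column per comparison. Dots mark called genes, 5, 5, 8 and 13 of the 26 from left to right.

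Other Fc receptor genes were followed as a list of 13, of which 5 to 8 were high enough to be tested. Fcrl5 encodes a receptor of the Fc receptor-like family known from B cells. It had the largest called change among list genes with at least 10 RPM in 3 of the 4 comparisons. In spleen Ly6C-high cells it fell short of that limit, with means of 0.0467 RPM in wild-type and 4.69 RPM in Rnaset2-/- libraries. Its mean rose from 2.62 to 191 RPM in spleen Ly6C-low cells (log2 fold change 5.72, adjusted p = 1.82e-05), from 2.25 to 508 RPM in liver Ly6C-low cells (7.10, adjusted p = 1.26e-05) and from 0.0773 to 33.5 RPM in liver Ly6C-high cells (4.57, adjusted p = 0.000826). In liver Ly6C-high cells Fcmr, the IgM receptor, rose from 0.396 to 35.7 RPM and Fcer2a, the low-affinity IgE receptor, from 0.75 to 26.8 RPM (4.53 and 3.77, adjusted p = 0.00016 and 0.000265), while the B cell list summed to 29.02 to 35.2 RPM in the wild-type and 167 to 416 RPM in the Rnaset2-/- libraries. In all, 1 gene of this list was higher and 1 lower of 5 tested in spleen Ly6C-high cells, 2 and 0 of 5 in spleen Ly6C-low cells, 4 and 0 of 8 in liver Ly6C-high cells and 4 and 2 of 7 in liver Ly6C-low cells, against the shares of all tested genes given for the signalling list (9.77% and 12.5%, 4.05% and 4.3%, 15.7% and 14.9%, and 20.2% and 22.5%).

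Receptors other than Fc receptors formed a list of 8, with 6 or 7 tested. Most of them signal through Fcer1g, Clec7a being an exception. Clec4n, which encodes the fungal lectin dectin-2, fell in spleen Ly6C-high cells (log2 fold change -0.99, adjusted p = 0.000947). Clec7a, which encodes the beta-glucan receptor dectin-1, fell from 509 to 133 RPM in spleen Ly6C-low cells (-1.93, adjusted p = 0.000125). Clec4d and Clec4e, lectins of the same cluster as Clec4n, fell in liver Ly6C-low cells, from 35.5 to 4.88 RPM (-3.10, adjusted p = 0.00367) and from 94.8 to 23.6 RPM (-2.84, adjusted p = 0.0194). The list had 2 genes higher and 1 lower of 7 tested in spleen Ly6C-high cells, 0 and 1 of 6 in spleen Ly6C-low cells, 1 and 1 of 6 in liver Ly6C-high cells and 2 and 3 of 6 in liver Ly6C-low cells. The shares of all tested genes called higher and lower were the same as for the other lists, up to 20.2% and 22.5% in liver Ly6C-low cells.

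The genes most like each member were found by Pearson correlation of the 9 group means of log2 scaled RPM, over 7904 genes with a mean of at least 10 RPM. For Fcgr4 they were Cd300e (0.963), Heg1 (0.962) and Phlda3 (0.954), and for Fcgr2b they were Gadd45a (0.960), Cdkn2d (0.948) and Alox5ap (0.946). For Fcgr1 they were Clta (0.955), Slc25a4 (0.952) and Tor3a (0.949), and for Fcgr3 Slc12a9 (0.940) and Tspan33 (0.938). For Fcer1g they were Trpv2 (0.967), C130050O18Rik (0.962) and Acot11 (0.961), and for Fcgrt Mylip (0.967), Tut1 (0.962) and Abca1 (0.962). Within the family the values were lower, the highest being 0.640 between Fcgr4 and Fcer1g and the lowest -0.704 between Fcgr2b and Fcgrt. The group means share libraries between genes, so these are descriptions over 9 points.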

How the data were processed

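Sorted macrophages were profiled with the Ion AmpliSeq Transcriptome Mouse panel, which counts 1 amplicon per gene, on an Ion Proton sequencer. Per the labels, the authors aligned 100-base reads to mm10 and counted them with the AmpliSeqRNA plug-in 5.2.0.3 of Torrent Suite 5.2.2, and deposited RPM values, the reads of each gene scaled so that every library has the same total. All values were whole reads within 0.1 read, so depth was recovered (11175843 to 21167602 reads, 3 reads being worth 0.142 to 0.268 RPM), and intervals of counting alone are narrow beside the spread of libraries.

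RPM values were divided by relative log expression factors and tested as log2(value + 1) with limma 3.58.1 (R 4.3.3) over genes that reached 1 RPM in 3 or more of the compared libraries, separately for each comparison, with Benjamini-Hochberg adjustment over all tested genes. Fold changes on this scale understate those of low genes. A gene was called at over 1.5-fold and adjusted p under 0.05, and an interaction at adjusted p under 0.05. Ratios to Fcgr2b were tested by two-sided exact permutation over libraries. Alternatives were an added value of 0.1, no filter, RPM as deposited, 1 fit of all 29 libraries, a replicate block, DESeq2 1.42.0 and edgeR 4.0.16 on the recovered reads, and leaving out libraries. All same-numbered libraries deviated together only between the subsets of Rnaset2-/- liver, where their deviations from the group means correlated between 0.231 and 0.527 over the tested genes. The fits were tested on simulated data. Comparisons that use the same libraries are not independent. Rnaset2a and Rnaset2b, the deleted genes, are not analysed here, and 1 gene of the signalling list and 1 gene correlated with Fcgr3 are not reported here.

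The members and gene lists were chosen with earlier results of these data known. The text names all 6 members, Syk, Inpp5d and B2m, and per genotype comparison the 3 largest called changes among pathway genes with at least 10 RPM, with exceptions stated. Marker lists are described by sums of RPM. Gene positions are from GENCODE vM21 on GRCm38, and promoter sequences from RefSeq on GRCm38.p6.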

Additional observations from a re-analysis of the deposited data

Results flagged for a closer look

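In the Kupffer cell group, replicate 3 stood apart for Fcgr1 at 103.5 RPM, while the other 3 libraries held 289 to 319 RPM. Its distance from the nearest library was large for the range of the group by Dixon's criterion, which chance passes in about 1 of 20 groups, and 12 groups of 4 were examined. That library also had the lowest sum of Kupffer markers (6934 RPM) and the highest sums of endothelial (8740 RPM) and hepatocyte (4134 RPM) markers.

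The effect of RNase T2 loss differed by a test of the difference itself for 7 combinations of gene and comparison. Between liver and spleen Ly6C-low cells the differences in log2 fold change were -4.42 for Fcgr2b and 1.07 for Fcgr1. Between liver and spleen Ly6C-high cells they were -1.24 for Fcgr2b and 1.64 for Fcgrt. Between Ly6C-low and Ly6C-high cells they were 1.23 for Fcgr2b and 0.58 for Fcgr3 in spleen and 2.15 for Fcgr1 in liver. The calls of Fcgr2b by organ in Ly6C-low cells and Fcgrt by organ in Ly6C-high cells held under every alternative run, whereas those of Fcgr1 by organ were lost under 15 of 18, Fcgr2b by organ in Ly6C-high cells under 7 of 17, Fcgr2b and Fcgr3 by subset in spleen under 8 and 10 of 18, and Fcgr1 by subset in liver under 10 of 17. Sex and genotype cannot be told apart in the liver libraries behind 5 of these values.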

How the results depend on the processing

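Of 108 fold changes and interactions of the 6 members, 49 were called, 29 of these kept their call under every alternative run, and none of the 49 reversed. Kept under all of them were the higher Fcgr4 in Rnaset2-/- spleen Ly6C-high, spleen Ly6C-low and liver Ly6C-low cells, the lower Fcgrt in spleen Ly6C-high cells, and the interactions of genotype and organ for Fcgrt in Ly6C-high and Fcgr2b in Ly6C-low cells. For the genotype comparison in liver Ly6C-high cells, 1 member was called, against 2 on RPM as deposited, 3 in 1 fit of all libraries, 3 with DESeq2 and 0 without the wild-type libraries holding Xist and Y-linked reads. The same omission left 1 of 3 in liver Ly6C-low cells. In 1 fit of all libraries the calls were 2 of 4 between subsets in wild-type liver, 4 instead of 1 between subsets in Rnaset2-/- liver, and 2 instead of 4 between organs in wild-type Ly6C-high and in wild-type Ly6C-low cells. DESeq2 called 3 between subsets in Rnaset2-/- liver, and RPM as deposited left 1 between organs in wild-type Ly6C-high cells. The interactions lost or gained calls most often. By organ, that of Ly6C-low cells held 1 of 2 with an added value of 0.1, with no filter, on RPM as deposited and in 1 fit of all libraries, and that of Ly6C-high cells held 1 in the last. By subset, the 2 calls in spleen became 0 with no filter, 4 on RPM as deposited and 0 in 1 fit of all libraries, and the 1 in liver became 0 with no filter and 2 in 1 fit of all libraries. The cause of these changes was not tested.

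Leaving out 1 library at a time gave 1 to 4 called members for genotype in spleen Ly6C-low cells (1 without any of the wild-type libraries), 1 to 5 in liver Ly6C-high cells (5 without Rnaset2-/- replicate 1), 1 to 3 between subsets in Rnaset2-/- liver, 2 to 5 between organs in wild-type Ly6C-high cells, 1 to 4 and 1 to 3 for the interactions by organ in Ly6C-high and Ly6C-low cells, and 0 to 4 and 0 to 2 for those by subset in spleen and liver. Values that changed sign were all uncalled, and the reversed values reached up to 0.82 in size. By library left out, the log2 ranges were as follows. For genotype they were -0.42 to 0.0660 for Fcgr1 in spleen and -0.79 to 0.0143 in liver Ly6C-high cells, and -0.0492 to 0.46 for Fcgrt in liver Ly6C-low cells. Between subsets they were -0.0887 to 0.34 for Fcer1g in wild-type and -0.84 to 0.17 for Fcgr3 in Rnaset2-/- liver. For Kupffer cells against Rnaset2-/- Ly6C-low cells they were -0.0502 to 0.59 for Fcgr3 and -0.59 to 0.82 for Fcgr2b. Between organs they were -0.0033 to 0.82 for Fcgr1 and -0.35 to 0.65 for Fcgr3 in Rnaset2-/- Ly6C-high cells, -0.10 to 0.0395 for Fcer1g and -0.0829 to 0.30 for Fcgrt in wild-type Ly6C-low cells, and -0.56 to 0.0874 for Fcgr3 in Rnaset2-/- Ly6C-low cells. The interactions were -0.65 to 0.16 for Fcgr1 by organ in Ly6C-high cells, and -0.14 to 0.86 for Fcgr3 and -0.0223 to 0.48 for Fcgr4 by subset in liver. The log2 ratio of Fcgr3 to Fcgr2b in liver Ly6C-high cells ran from -0.34 to 0.15.

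On RPM as deposited the sign also differed for Fcer1g between genotypes in liver Ly6C-high cells (0.0168), Fcgr3 in Kupffer against wild-type Ly6C-low cells (0.0391), Fcgr1 in the interaction by organ in Ly6C-high cells (0.18), and Fcgr3 (-0.0535) and Fcgr4 (-0.11) in the interaction by subset in liver. Fcgr2b in Kupffer against Rnaset2-/- Ly6C-low cells, at -0.01, was 0.0285 with an added value of 0.1, 0.45 on RPM as deposited, 0.0883 in 1 fit of all libraries and 0.12 with a replicate block. Between subsets in Rnaset2-/- liver, where all same-numbered libraries deviated together, the replicate block raised the calls from 1 to 3. In the other comparisons of 2 groups the deviations of same-numbered libraries correlated between -0.249 and 0.59, with at least 1 pair at or under 0.1 in each. This does not settle whether those samples were paired. In wild-type liver, Ly6C-low replicates 2 and 3 correlated at 0.707 and 0.311 with Ly6C-high replicates 3 and 2, and at -0.116 and -0.168 with those of the same number. A pairing across numbers was not fitted. In those other comparisons the block ended the calls of Fcgr1 between genotypes in spleen Ly6C-low cells (log2 fold change 0.62) and Fcer1g between subsets in Rnaset2-/- spleen (1.09). Depth limited no member, the lowest having 43 reads. With 3 or 4 libraries a group, and sex tied to genotype in liver, the spread of libraries was the limit.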
